A study of Homo sapiens with 6 samples.

Results

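Histone genes were examined in RNA sequencing data from Hep3B, a human liver cancer cell line. The members were the protein-coding genes of the deposited table whose names begin with HIST1H to HIST4H, H1F, H2AF, H2BF, H3F or H4F, and 68 of its 27009 genes met this rule. The 54 genes with the HIST prefix are the replication-dependent histone genes, and the other 14 are the variant genes, which include H2AFY and H2AFY2, the genes of macroH2A1 and macroH2A2. All 6 libraries came from cells in which endogenous PD-L1 had been knocked out. The 3 vector libraries carried the empty plasmid, and the 3 libraries labelled nPD-L1 overexpressed a mutated PD-L1, which is held in the nucleus. The mutant was cloned behind a CMV promoter in a lentiviral plasmid with puromycin resistance and kept as stable cells, so its expression does not follow the native gene. The comparison of both groups asks how histone mRNAs differed once nuclear PD-L1 was added back. The study describes the 3 sequenced samples of each group as independent, without saying that they are separate cultures. Nothing in the labels says so either, so the p-values measure only the spread between these libraries, which may be technical.

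Histones package DNA into nucleosomes, which hold pairs of H2A, H2B, H3 and H4, while H1 binds the linker DNA between them. Replication-dependent histone genes are copied mainly in S phase, and their mRNAs usually end in a stem-loop in place of a poly(A) tail, which stem-loop binding protein (SLBP) recognizes. Variant genes are mostly transcribed through the cell cycle into ordinary polyadenylated mRNAs, and their proteins replace the canonical histones at particular places. MacroH2A carries a large globular macro domain behind its H2A part and is known mostly for repressed chromatin.

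Each value is the number of reads on a gene over the size factor of its library, and the values summed to 18082164 to 19682128 per library. Whole reads could be recovered in all 6 libraries, with depths of 17427519 to 22253295 reads. PD-L1 itself, listed as CD274, had values of 28.3, 38.4 and 47.8 with the vector and of 16.8, 19.2 and 30.9 in the nPD-L1 libraries. The RNA counted for the targeted gene was therefore not higher where its mutant was overexpressed, which goes against the label. The study shows the mutant as protein, by detection of PD-L1 and cellular fractionation in stable Hep3B cells. These RNA values do not measure that protein, and the groups are called by their labels throughout. Of 9 hepatocyte markers chosen, 8 were in the table, and AFP was not. ALB, TTR, APOB, APOA1 and TF were under 10 in every library, which goes against the liver label, and the identity of the cells was not tested. The 8 summed markers ranged from 982 to 1562 in the vector libraries and from 1064 to 1177 in those labelled nPD-L1. FGB, a fibrinogen chain, made up most of that sum, with 1217, 1540 and 962 against 995, 1057 and 1120. SERPINA1 had 41.4, 7.91 and 12.5 against 16.8, 20.2 and 20.3, and the groups overlapped for both genes. HNF4A, a liver transcription factor, had 19.2, 11.3 and 6.24 against 51.3, 51.6 and 33.8. It rose by 1.91 on the log2 scale (limma, adjusted p = 0.0232). COL1A1, a collagen chain used as a fibroblast marker, rose by 2.84 (limma, adjusted p = 7.99e-06). Of the other fibroblast markers in the table, LUM had 99.9, 182 and 111 against 112, 139 and 161 (0.10, adjusted p = 0.886) and PDGFRB was under 10 in every library. The 3 summed to 169 to 245 with the vector and to 581 to 655 in the other group. The endothelial markers PECAM1 and VWF summed to at most 6.06 in any library, and the leukocyte marker PTPRC was under 10 throughout. CD14, a monocyte marker, had 4.04, 12.4 and 2.08 against 14.3, 10.1 and 1.93, with overlapping groups. The part of any other cell type in the histone values was not tested.

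The 3′ stem-loop is shown first, because it is the usual end of replication-dependent histone mRNAs. It was searched as a 6-base stem beginning with GG, a loop of 4 bases and the paired 6 bases, in the transcripts of GENCODE 29, whose coordinates were the same as those of the table for all 68 members. A transcript model held it in 28 of the 54 replication-dependent genes and in H2AFX among the variants. The same search found it in 116 (0.728%) of 15931 protein-coding genes of the table. Of these, 87 were not members, so a match alone does not mark the class. Each line below gives the transcript strand with the 16 bases of stem and loop in capitals, for genes chosen to show the different forms.
HIST1H2AC: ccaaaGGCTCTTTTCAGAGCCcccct
HIST1H2BD: ccaaaGGCTCTTTTAAGAGCCacgca
HIST1H3E: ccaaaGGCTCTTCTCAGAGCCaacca
HIST1H4H: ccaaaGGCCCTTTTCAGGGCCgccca
HIST1H4I: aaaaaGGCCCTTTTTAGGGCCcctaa
H2AFX: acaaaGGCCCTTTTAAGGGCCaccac
In GRCh38 these lie at chr6:26124664-26124689 on the plus strand, chr6:26158582-26158607 plus, chr6:26225591-26225616 plus, chr6:26285126-26285151 minus, chr6:27139649-27139674 plus and chr11:119094893-119094918 minus. The forms followed the histone families. All 8 H4 genes with a stem-loop had a stem of GGCCCT, and all 20 replication-dependent H2A, H2B and H3 genes with a stem-loop had GGCTCT. The form of HIST1H2AC was shared by 15 genes, while those of HIST1H3E and H2AFX each occurred in 1 member.

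The proximal promoters also separated the families. RefSeq promoters (GRCh38.p14, 250 bases before to 50 after the start) matched 56 members, 45 replication-dependent and 11 variant. The TATA box TATAAA, the CCAAT box and the octamer ATTTGCAT were searched on both strands, and none of these motifs contains another. Matches that overlap on the 2 strands run together in the print. The octamer, known as the site of POU2F1 in histone H2B promoters, was found in 14 of 22 replication-dependent H2A and H2B promoters, in 0 of 23 H1, H3 and H4 promoters and in 1.80% of 27305 promoters. CCAAT occurred in all 22 H2A and H2B promoters, against 35.7% of all promoters. TATAAA stood in 30 of the 45 replication-dependent promoters, 4 of the 11 variant promoters and 12.0% of all. The 250 bases before the start are printed for 4 replication-dependent genes, 3 with the octamer and HIST1H1C without it, with every match in capitals.
HIST1H2BK: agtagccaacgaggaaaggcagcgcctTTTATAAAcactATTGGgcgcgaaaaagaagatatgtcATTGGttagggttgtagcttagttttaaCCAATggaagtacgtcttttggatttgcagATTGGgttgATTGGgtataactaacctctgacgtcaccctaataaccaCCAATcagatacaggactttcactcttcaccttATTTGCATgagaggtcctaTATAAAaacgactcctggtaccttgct
HIST1H2AC: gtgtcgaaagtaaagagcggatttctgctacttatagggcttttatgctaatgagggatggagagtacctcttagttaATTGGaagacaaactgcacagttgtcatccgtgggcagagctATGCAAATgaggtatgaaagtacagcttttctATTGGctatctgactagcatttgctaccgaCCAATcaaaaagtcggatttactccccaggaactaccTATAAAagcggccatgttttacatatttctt
HIST2H2BE: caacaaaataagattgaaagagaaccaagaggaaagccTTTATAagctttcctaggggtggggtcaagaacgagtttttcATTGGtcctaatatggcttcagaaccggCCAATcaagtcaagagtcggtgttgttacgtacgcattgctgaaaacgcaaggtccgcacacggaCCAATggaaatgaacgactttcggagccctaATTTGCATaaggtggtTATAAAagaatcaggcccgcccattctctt
HIST1H1C: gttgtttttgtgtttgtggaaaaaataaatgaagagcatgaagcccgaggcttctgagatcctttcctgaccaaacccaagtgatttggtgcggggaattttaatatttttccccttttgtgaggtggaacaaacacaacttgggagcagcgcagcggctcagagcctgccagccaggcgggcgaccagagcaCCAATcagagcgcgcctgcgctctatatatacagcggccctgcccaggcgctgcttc
Their positions are chr6:27146859-27147108 minus, chr6:26123922-26124171 plus, chr1:149886683-149886932 minus and chr6:26056471-26056720 minus. In HIST1H2AC the octamer reads ATGCAAAT, its reverse complement. The HIST1H2AC window spans, and the HIST2H2BE window lies within, the space between a pair of genes transcribed away from each other, with annotated starts 219 bases apart for HIST1H2BC and HIST1H2AC and 323 bases apart for HIST2H2BE and HIST2H2AC. There were 8 such pairs among the members. The windows of paired genes can overlap, so the promoter counts above can hold the same site for both genes. The levels within a pair could be far apart. HIST1H2BK had a mean of 2091 per kilobase of gene and its partner HIST1H2AH 8.51, while HIST1H2BJ and its partner HIST1H2AG had 70.5 and 27.1.

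H2AFY, on chromosome 5 from 135333900 to 135399914 on the minus strand, had 4297, 4580 and 4181 with the vector and 4140, 4108 and 3841 in the nPD-L1 libraries. The 3 lower values were all of the latter group and the groups did not overlap, but the distance between the closest libraries was small. The log2 fold change was −0.11 (SE 0.093, 95% interval −0.32 to 0.10, limma adjusted p = 0.664), and the exact two-sided permutation test gave p = 0.1, the smallest that 3 against 3 libraries allow. This interval spans from a fold of 0.803 to 1.07, and the difference did not pass the test over all genes.
H2AFY2, on chromosome 10, had 574, 608 and 529 with the vector and 554, 520 and 502 in the nPD-L1 libraries, and these ranges overlapped. Its log2 fold change was −0.12 (SE 0.112, 95% interval −0.37 to 0.13, adjusted p = 0.705, exact two-sided permutation p = 0.2). The table gives H2AFY a gene length of 17730 bases and H2AFY2 one of 1980 bases, and the mean levels per kilobase of gene were 236 and 277. The longest transcript of H2AFY has 10982 bases and that of H2AFY2 1980, so the gene length lowers the level of H2AFY per kilobase. Not divided by length, the means were 4191 and 548. The table counts whole genes, so the splice forms of H2AFY, known as macroH2A1.1 and macroH2A1.2, are not resolved. H2AFY overlaps the antisense gene C5orf66, which had a mean of 12.9 beside 4191 for H2AFY, and the span of H2AFY2 overlaps 14058 bases of AIFM2 on the other strand, which had a mean of 2074. The library kit is not stated to keep strand, so reads in those overlaps cannot be told apart.

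Among the other H2A variants, H2AFZ and H2AFV encode H2A.Z, found at promoters, H2AFX encodes H2AX, which is phosphorylated at DNA breaks, and H2AFJ encodes H2A.J. H2AFZ had the highest level per kilobase of all members, 4444, with values of 10351, 12236 and 10055 in the vector libraries against 9678, 9887 and 9195 in those labelled nPD-L1. The groups did not overlap, with a log2 fold change of −0.18 (95% interval −0.42 to 0.06, adjusted p = 0.542). Its paralog H2AFV had 2940, 3048 and 2817 against 2849, 2893 and 2783, and the change of −0.05 lay within overlapping ranges (interval −0.25 to 0.15). H2AFX had 4066, 3991 and 3714 against 4330, 3349 and 3066, so the nPD-L1 group held both the highest and the lowest library (−0.15, interval −0.43 to 0.14). H2AFJ had 1582, 2164 and 1277 against 1377, 1498 and 1190, a change of −0.28 (interval −0.66 to 0.11), with vector replicate 2 above the other 5 libraries.

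H3F3A and H3F3B encode the same H3.3 protein, the variant laid down outside replication. H3F3B stood at 11524, 12975 and 11779 against 12421, 11765 and 11367, and its log2 fold change of −0.03 had an interval of −0.25 to 0.20. H3F3A stood at 5313, 6601 and 4665 against 5393, 5308 and 4672, with a change of −0.10 (interval −0.39 to 0.20). Both ranges overlapped, and without vector replicate 2 both changes were above 0, at 0.04 for H3F3A and 0.02 for H3F3B.

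The linker histone variants were H1FX and H1F0. H1FX, the gene of H1X, had the change farthest from 0 among the variants. It had 3213, 3177 and 2702 with the vector and 2669, 2294 and 1895 in those labelled nPD-L1. All 3 vector libraries were above all 3 others, and the log2 fold change was −0.42 (SE 0.134, 95% interval −0.71 to −0.12, limma adjusted p = 0.138, exact two-sided permutation p = 0.1), which did not pass over all genes. H1FX shares 886 bases with the antisense gene H1FX-AS1, which had a mean of 10.1. H1F0, the gene of the replacement linker histone H1.0, which accumulates in cells that stop dividing, had 4842, 3739 and 4856 against 3819, 3803 and 3507. Vector replicate 2 lay within the range of the libraries labelled nPD-L1 and the other 2 vector libraries above it, and the change was −0.26 (interval −0.53 to 0.00, adjusted p = 0.356). Without vector replicate 2 it was −0.39 with a limma adjusted p of 0.00845.

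**Figure D1:**
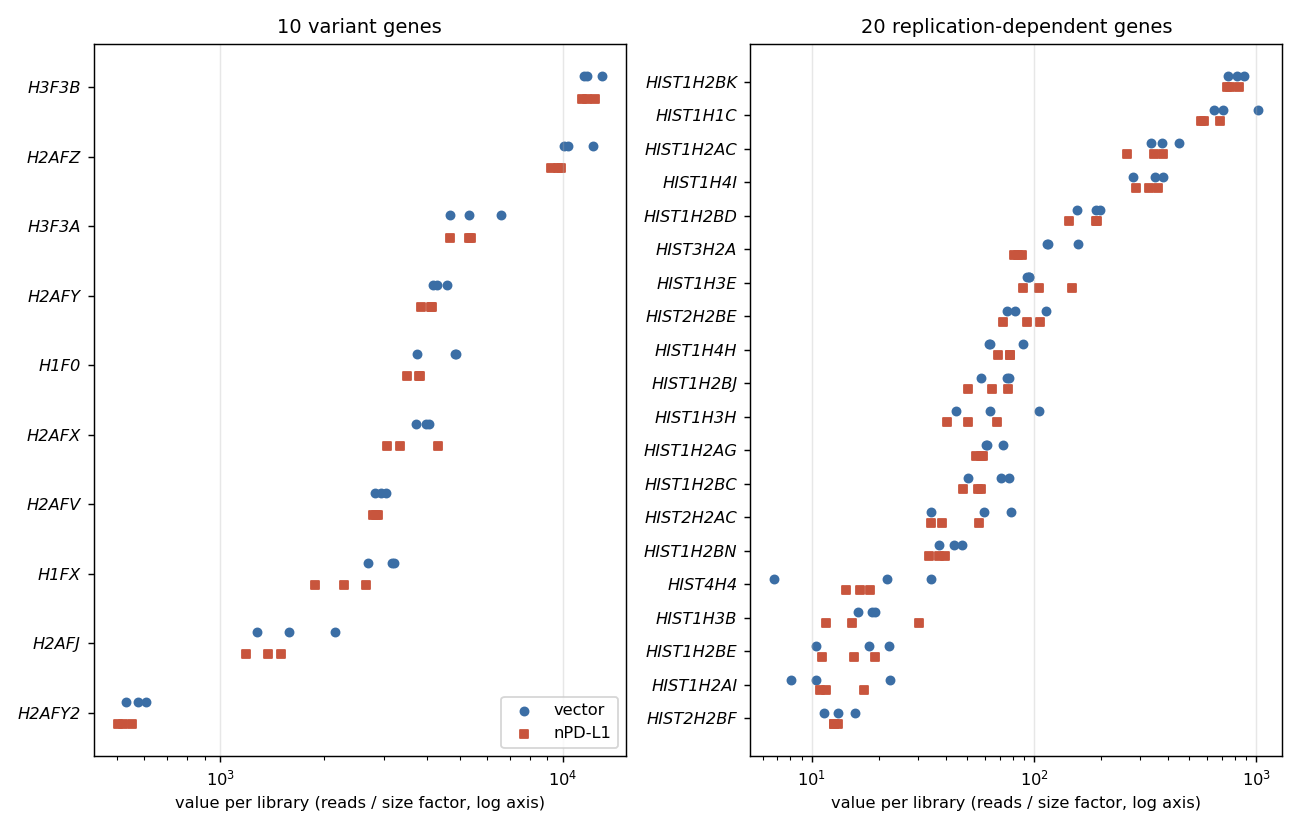
Values per library of the 30 tested histone genes on a log axis, variants on the left and replication-dependent genes on the right, with circles for the 3 vector and squares for the 3 nPD-L1 libraries. The groups stand apart for H2AFZ, H2AFY, H1FX, HIST3H2A and HIST1H2AG and overlap for the other 25 genes.

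Replication-dependent genes gave little signal. Their 54 genes summed to 3315, 4036 and 3084 with the vector and to 3026, 3187 and 3017 in the nPD-L1 libraries, which is 0.0162% to 0.0205% of a library, against 0.232% to 0.270% for the 14 variant genes. The vector mean was 3479 ± 497 (SD, n = 3) and the nPD-L1 mean 3077 ± 95.5 (SD, n = 3), and the ranges overlapped. For the 14 variants the sums were 48706, 53119 and 46579 against 47234, 45427 and 42019, which also overlapped. Of the 54 genes, 26 were under 10 in every library and 20 passed the filter of at least 10 in at least 3 libraries. HIST1H2BK alone held 24.3% of the summed replication-dependent signal, and the 8 most abundant genes held 81.3%. The HIST1 cluster on chromosome 6, with 41 of the genes, held 90.7%.

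**Figure D2:**
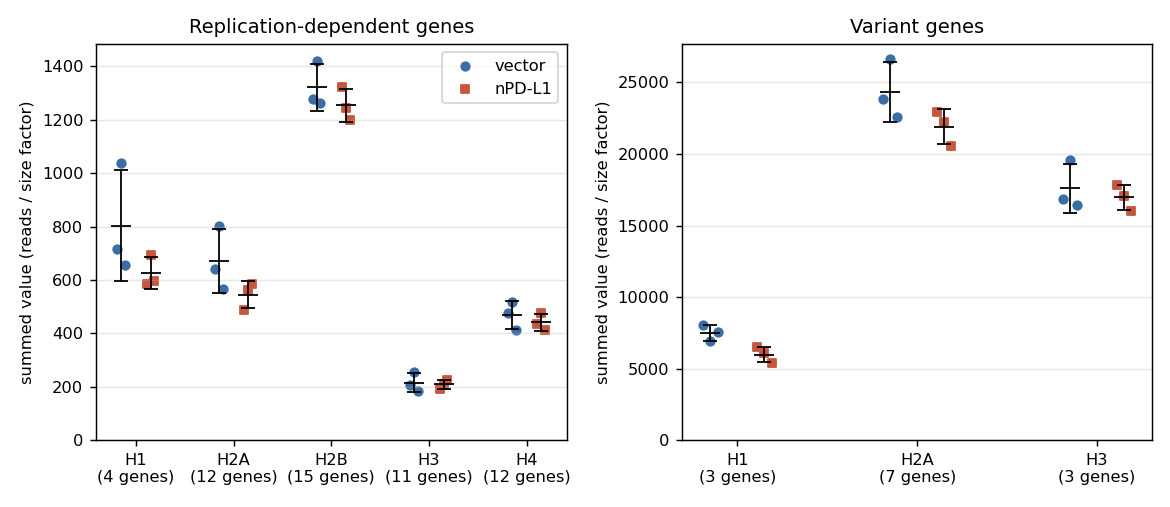
Summed value per library of each histone family, replication-dependent on the left and variant on the right, both axes from 0, with the mean and SD of 3 libraries as bars. Vector and nPD-L1 libraries overlap in every replication-dependent family, and the variant H1 sum is 6916 to 8055 in the vector and 5401 to 6490 in the nPD-L1 libraries.

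By family, the replication-dependent H1 sum was 804 ± 206 (SD, n = 3) with the vector and 626 ± 59.4 in those labelled nPD-L1. The H2A sum was 670 ± 120 and 545 ± 49.6, and the H2B sum 1320 ± 87.5 and 1254 ± 62.3. For H3 the sums were 216 ± 36.9 and 210 ± 16.8, and for H4 468 ± 52.7 and 442 ± 31.6. In each family the difference of the means was under the sum of both SDs and the ranges overlapped. No test was made on these sums.

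Levels were compared with the transcript models, in which 21 replication-dependent genes run at least 100 bases past the stem-loop and 7 end within 100 bases of it. Of the former 12 were tested and of the latter 2. Another 24 genes have models under 800 bases with no stem-loop, of which 4 were tested, and 2 have longer models without it, both tested. A poly(A) signal (AATAAA or ATTAAA in the last 40 bases) ended a transcript of 22 replication-dependent genes, 13 of them tested, and was missing from 32, of which 7 were tested. The same signal was found in 88.2% of the protein-coding genes. The filter is not corrected for gene length. Per kilobase of gene, the median value was 6.75 with the signal and 8.32 without it. For models at least 100 bases past the stem-loop this median was 6.23, and for those ending nearer 5.03. It was 8.63 for short and 48.8 for longer models without a stem-loop. Whether the RNA was selected for poly(A) tails is not given in the sources used here, and a model that stops at the coding end leaves reads farther along uncounted.

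**Figure D3:**
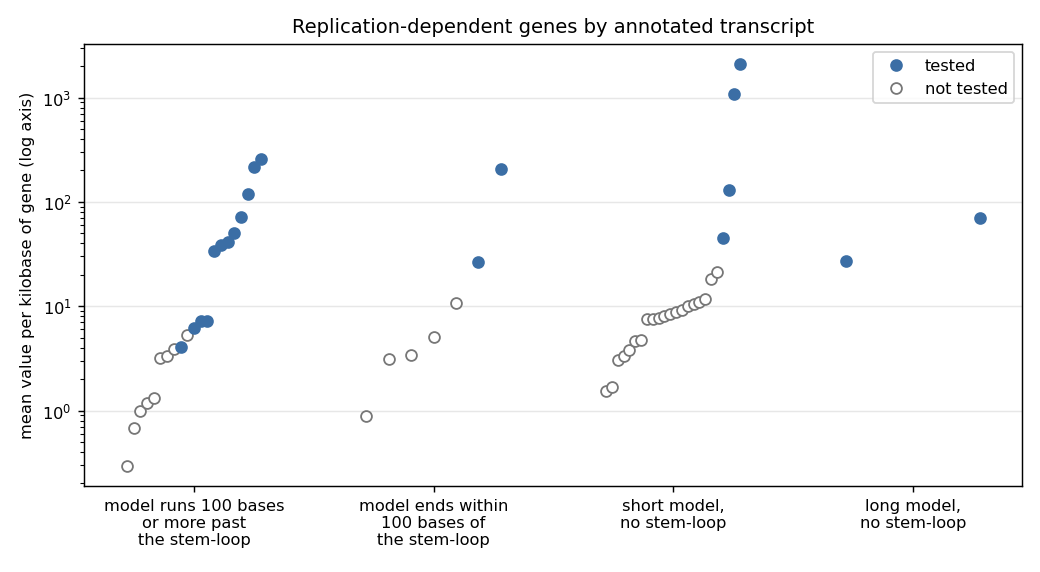
Mean value per kilobase of gene over 6 libraries, on a log axis, for the 54 replication-dependent genes by the kind of annotated transcript, with filled points for tested genes. The genes that were not tested lie at or under 21.5, while HIST1H2BK at 2091 and HIST1H1C at 1091 have short models with no stem-loop.

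The 2 genes highest per kilobase, HIST1H2BK and HIST1H1C, both have a short model without stem-loop or poly(A) signal. HIST1H2BK, an H2B gene, had 818, 882 and 745 against 834, 763 and 739, a log2 fold change of −0.06 (95% interval −0.31 to 0.18). Its groups overlapped, and 74.1% of its 50-base stretches also occur in transcripts of other genes, mostly H2BFS, so its count is uncertain. HIST1H1C, the gene of H1.2, had 706, 1020 and 645 against 566, 683 and 584, and its change was −0.35 (interval −0.72 to 0.02, adjusted p = 0.392). HIST1H4I, an H4 gene, had 349, 379 and 277 against 330, 360 and 288 and a change of −0.03 (interval −0.37 to 0.31). HIST1H2AC, an H2A gene, had 376, 448 and 336 against 261, 346 and 380 (−0.24, interval −0.62 to 0.13). For HIST1H2BD the values were 156, 199 and 190 against 192, 189 and 144 (−0.06, interval −0.44 to 0.33). All 5 genes had overlapping groups.

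HIST2H2AC and HIST1H2BC completed the 8 highest per kilobase together with HIST3H2A, an H2A gene of the small cluster on chromosome 1. HIST3H2A had 116, 157 and 114 against 84.9, 88.0 and 81.0, and its log2 fold change of −0.59 was the lowest of the tested members (SE 0.190, 95% interval −1.01 to −0.17, limma adjusted p = 0.141, exact two-sided permutation p = 0.1). All 3 vector libraries were above the others, but the difference did not pass over all genes. HIST2H2AC had 59.6, 79.1 and 34.3 against 56.3, 34.4 and 38.6 (−0.36, interval −1.10 to 0.37), and 30.5% of its 50-base stretches recur in other genes, among them HIST2H2AA3 and HIST2H2AA4. HIST1H2BC had 50.5, 76.8 and 70.7 against 47.9, 57.7 and 56.0 (−0.27, interval −0.80 to 0.25).

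At the other end, HIST1H3E, an H3 gene, had 94.9, 94.9 and 92.5 with the vector and 89.1, 105 and 148 in those labelled nPD-L1. Its change of 0.24 (interval −0.23 to 0.71, adjusted p = 0.677) was the highest of the tested members and came with nPD-L1 replicate 3 above the other 5 libraries. HIST1H4H had 62.6, 89.2 and 63.4 against 68.9, 77.9 and 78.1 (0.08, interval −0.40 to 0.56), and HIST2H2BE had 75.7, 113 and 82.1 against 72.3, 93.1 and 106 (0.01, interval −0.50 to 0.51). HIST1H3H, which had 63.6, 105 and 44.7 against 50.4, 67.8 and 40.5, was among the 3 lowest of the genes with a mean of at least 50 (−0.36, interval −1.08 to 0.35). The 8 tested replication-dependent genes not described here had changes from −0.21 to 0.05 and means of 13.0 to 67.0.

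**Figure D4:**
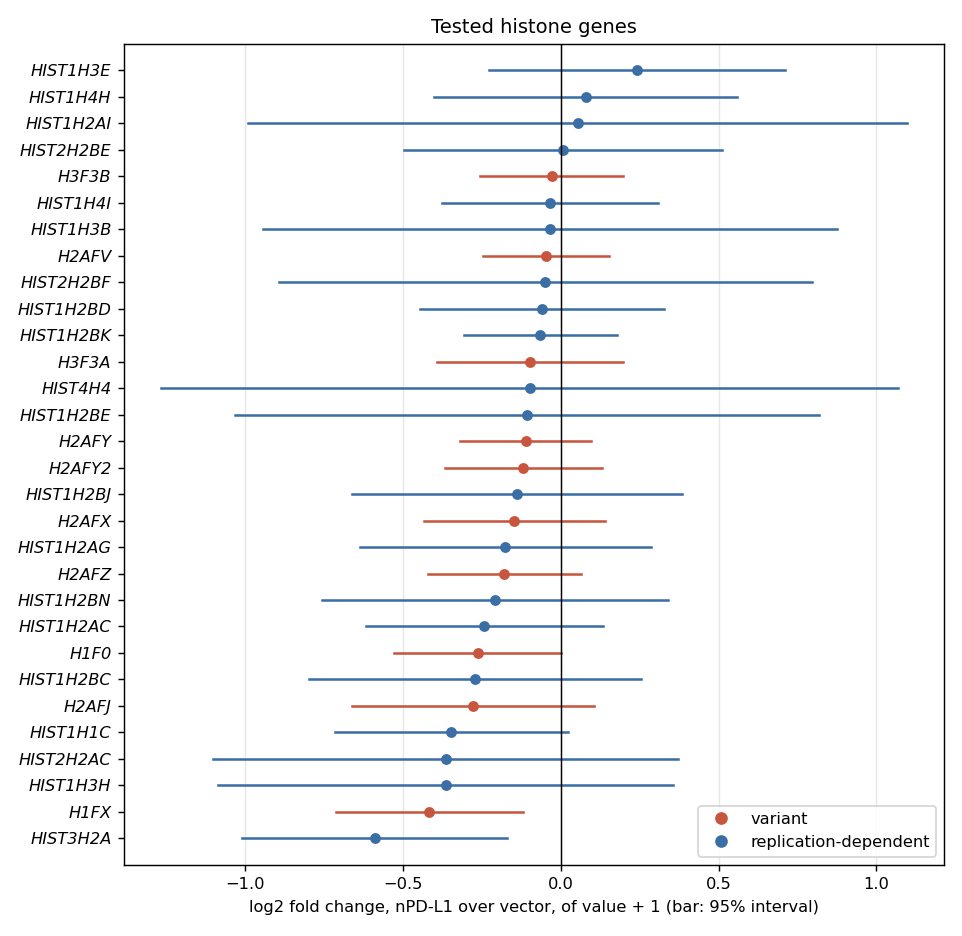
Log2 fold change of nPD-L1 over vector for the 30 tested histone genes, as points with 95% intervals from limma, variants in red and replication-dependent genes in blue. The points run from −0.59 for HIST3H2A to 0.24 for HIST1H3E, and only the intervals of HIST3H2A and H1FX leave out 0.

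Over the whole table, 15076 genes were tested, of which 4.04% were called higher and 0.922% lower in the libraries labelled nPD-L1 at an adjusted p under 0.05 (limma). Of the 30 histone genes tested, 0 were called in either direction. At an unadjusted p under 0.05, 0 histone genes were higher, against 9.53% of all genes, and 2 were lower, HIST3H2A and H1FX, against 4.71% of all genes. On the recovered reads of all 6 libraries, edgeR and DESeq2 also called 0 at an adjusted p under 0.05, and 2 and 4, all lower, at an unadjusted p. The groups did not overlap for 5 of the 30 genes, all lower, against 8.54% of all genes lower and 12.0% higher. The log2 fold change was below 0 for 26 of the 30, 10 of 10 variants and 16 of 20 replication-dependent genes, beside 53.3% of all tested genes. It was 27 of 30 with upper-quartile factors, 26 with equal totals and 23 with a gene length trend removed. The median was −0.11 for the members and −0.02 for all genes, and the median standard error of the members was 0.182. Of the 95% intervals, 24 of 30 lay within a log2 change of 1 on both sides, and 10 of 30 within 0.5. A p above the threshold does not show that these genes were at equal levels.

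Vector replicate 2 held the highest of the 6 values for 14 of the 20 replication-dependent genes and 7 of the 10 variants tested. It did so for 29.5% of all tested genes and 41.0% of genes no longer than the median length of the tested replication-dependent genes. Among genes no longer than the longest tested replication-dependent gene, 62.9% had a log2 fold change below 0. Without vector replicate 2 the number of members below 0 went from 26 to 21, their median from −0.11 to −0.07, and 1 member, H1F0, was called lower. Without it the log2 fold change also came closer to 0 for H2AFZ (−0.09), H2AFJ (−0.08), H2AFY (−0.07), H2AFY2 (−0.07), HIST1H1C (−0.15), HIST2H2AC (−0.10) and HIST1H3H (−0.04). Vector replicates 2 and 3 were also the farthest apart of all pairs within a group, with 1281 genes over 2-fold apart. The part of this library or of gene length in the histone values was not tested.

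Lists of genes around histones were set beside the members. Of 42 histone chaperones and exchange factors, which carry histones to DNA and swap variants, 42 were tested, 1 was called higher, 0 lower, and 34 had a log2 fold change below 0 (median −0.10). Over all tested genes these shares were 4.04%, 0.922% and 53.3%, so 1 call in 42 is no more than the background. The called gene was UBN2, a subunit of the HIRA complex that lays down H3.3, with 220, 165 and 221 under the vector and 303, 360 and 421 in those labelled nPD-L1. It rose by 0.83 on the log2 scale (95% interval 0.45 to 1.22, limma adjusted p = 0.0171). HIRA itself had 236, 317 and 193 against 240, 232 and 211 (−0.10, adjusted p = 0.851). The lowest changes of this list were those of HJURP (−0.55, limma adjusted p = 0.0684), MIS18A (−0.34, adjusted p = 0.169) and DAXX (−0.33, adjusted p = 0.248). None of them was called. Their groups did not overlap, as for 8.54% of all tested genes in the lower direction, and 8 genes of the list were above 0. Of the factors that transcribe and process histone mRNA, 24 were tested, 0 were called, and 13 were below 0 (median −0.03). SLBP had 2226, 2427 and 2384 against 2161, 2153 and 2016 (−0.15, adjusted p = 0.538), and NPAT, the coactivator of histone loci, had 340, 298 and 411 against 335, 262 and 396. POU2F1, which binds the octamer printed above, had 562, 370 and 657 against 601, 557 and 708 (0.26, adjusted p = 0.617). HIRA, SLBP, NPAT and POU2F1 were picked for their roles after their values had been seen.

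Of 26 S phase genes, 26 were tested, 0 were called and 21 were below 0 (median −0.08, range −0.24 to 0.19). This is relevant because replication-dependent histone mRNA depends on the share of cells in S phase, and in bulk samples fewer such cells and less RNA per cell cannot be told apart. Of 10 genes around macroH2A, its splicing factors and partners, 10 were tested, 0 were called, and 4 were below 0 (median 0.04). Calls at an unadjusted p under 0.05 in these 4 lists were 2 higher and 4 lower among the chaperones, 3 higher and 1 lower among the mRNA factors, 0 in S phase and 1 higher around macroH2A, beside 9.53% higher and 4.71% lower over all tested genes.

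**Figure D5:**
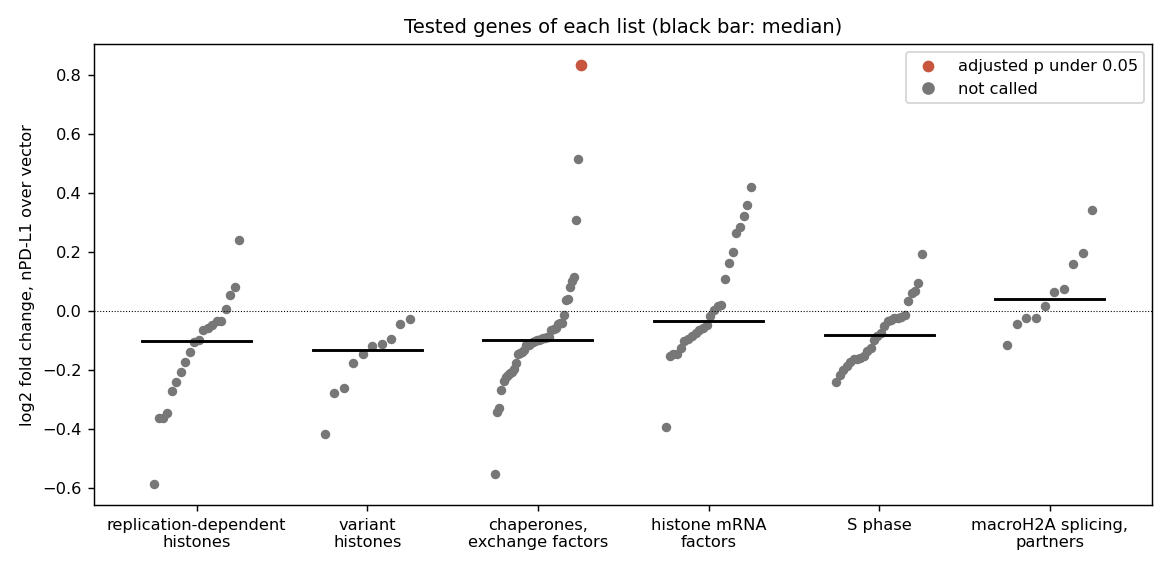
Log2 fold changes of the tested genes in the 2 histone classes and the 4 related lists, each point a gene and each black bar a median. UBN2 at 0.83 is the only called gene, and the medians lie between −0.13 for the variant histones and 0.04 for the genes around macroH2A.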

How the data were processed

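RNA from 3 vector and 3 nPD-L1 libraries of PD-L1-knockout Hep3B cells was sequenced by a company after TRIzol extraction and NEBNext Ultra library preparation. The submitters' processing notes name CASAVA, HISAT2 2.0.5 and hg38, and the counter and annotation are not given in the sources used here. The authors' deposited values are a signal, the reads on each gene divided by a library size factor, although the table presents them as raw counts. Its authors' group means, fold changes, p-values and adjusted p-values were not used. Gene length was read from the same deposited table, where the length is the only other number taken.

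Because the values are not whole counts, limma (version 3.58.1, R 4.3.3) with trend and robust moderation was run on log2(value + 1) for the 15076 genes with at least 10 in at least 3 libraries. Calls needed an adjusted p (Benjamini-Hochberg, over all genes) under 0.05, and the fold changes are on this scale, which understates changes of low genes. All nonzero values (100%, within 0.001 of a read) were whole multiples of a library's own step, so reads could be recovered in each library. The planned count fits, edgeR 4.0.16 and DESeq2 1.42.0, used 4 libraries, because in the other 2 the step lies near 1, and fits on all 6 were added after seeing the data. Values of under about 10 reads are limited by counting error. The scripts were tested on simulated data with 50 changed genes at each fold. There limma on 6 libraries recovered 2% of 1.25-fold, 16% of 1.5-fold, 52% of 2-fold and 96% of 4-fold changes.

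The genes named were H2AFY, H2AFY2, every other variant tested and the 8 replication-dependent genes highest per kilobase. Also named were the 3 highest and 3 lowest fold changes among replication-dependent genes with a mean of at least 50. Called genes of each list, the lowest changes of the chaperone list and CD274 were named too. The members and lists were chosen with earlier results of these data known. Alternatives were other pseudocounts, filters, scalings, moderation, a gene length trend, the replicate block, other thresholds and leaving out each library.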

Additional observations from a re-analysis of the deposited data

How the results depend on the processing

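The count of histone genes called higher was 0 under every alternative run. The count called lower, 0 in the main fit, was 1 with the replicate number as a replicate block (H1FX, −0.42, adjusted p = 0.0103), 0 to 1 when each library was left out, and 2 at an unadjusted p under 0.05. The 1 came without vector replicate 2 (H1F0, −0.39, adjusted p = 0.00845). The block changed no other call among the histone genes, and the cause of either change was not tested. Same-numbered libraries had correlations of their deviations of −0.013, 0.229 and 0.131, and vector replicate 1 did not correlate best with its own number, so the numbers were not taken as pairs. Over all genes the calls were 609 higher and 139 lower, 927 and 258 with the block, 618 and 142 by edgeR and 758 and 202 by DESeq2 on 6 libraries, and 235 and 48, 333 and 85 and 254 and 53 by edgeR, DESeq2 and limma on 4 libraries. Without vector replicate 2 they were 793 and 244, and 350 to 682 and 77 to 139 without another library. For H2AFY the log2 fold change ranged from −0.27 to −0.07 and the adjusted p from 0.375 to 0.9998 over 21 alternatives, and for H2AFY2 from −0.17 to −0.06 and from 0.504 to 0.9998. Over 22 named genes, 438 of the 462 values kept their direction and side of the threshold. Changes of sign occurred in 22, none of them called. With the gene length trend removed they were HIST1H4I at 0.046 and HIST1H2BD at 0.016. HIST2H2BE was −0.018 with upper-quartile factors, and on the 4 libraries of the planned count fits −0.12 by edgeR, −0.13 by DESeq2 and −0.14 by limma, where HIST1H4H was −0.045, −0.052 and −0.035. Leaving out each library in turn gave ranges across 0 for H3F3A (−0.21 to 0.039), H3F3B (−0.063 to 0.024), HIST1H4I (−0.16 to 0.062), HIST1H2BD (−0.16 to 0.077), HIST2H2BE (−0.11 to 0.18) and HIST1H4H (−0.0070 to 0.25). No scaling moved the median of all genes by over 0.1. Genes under about 20 have intervals near 1 on either side on the log2 scale.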

Other observations

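Rows outside the rule also carry histone sequence. CENPA, the centromeric H3 variant, whose name does not begin with a histone prefix, had 674, 605 and 770 with the vector and 639, 457 and 450 in the nPD-L1 libraries. Its change was −0.42 on the log2 scale (95% interval −0.77 to −0.07, limma adjusted p = 0.222), and the ranges overlapped. The H3F3A pseudogene H3F3AP4 had 893, 1212 and 892 against 996, 910 and 941 (−0.06, adjusted p = 0.876), a level at which reads of H3F3A and its copies may be split between them, since 11.7% of the 50-base stretches of H3F3A recur in H3F3AP4, H3F3AP6 or another gene. H3F3AP6 had 55.5, 113 and 65.5 against 81.5, 74.8 and 69.5, with vector replicate 2 the highest as in H3F3A itself. H1FX-AS1, antisense to H1FX, had 16.1, 11.3 and 13.5 against 5.88, 7.08 and 6.75, and the pseudogene H2AFVP1 had 26.2, 16.9 and 27.0 against 14.3, 14.2 and 10.6. Both had groups that did not overlap, as did 8.54% of all tested genes in the lower direction. Their log2 fold changes were −0.94 (limma, adjusted p = 0.366) and −0.78 (limma, adjusted p = 0.374). H1FX-AS1 reached 10 only in the vector libraries, so it passed the filter through the group where it was higher. Its lack of overlap therefore cannot count as a result. These rows were chosen after their values had been seen.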
